A study of Mus musculus with 26 samples.

Results

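The genes that write, remove and read DNA methylation were followed in mouse embryonic fibroblasts (MEFs) with an altered ATRX protein. The 9 genes were the methyltransferases Dnmt1, Dnmt3a and Dnmt3b, the maintenance factor Uhrf1, the dioxygenases Tet1, Tet2 and Tet3 and the methyl-CpG binding proteins Mbd1 and Mbd2. They were taken by symbol from GENCODE M21, and all 9 were among the 53801 gene identifiers of the RNA-Seq files. ATRX is a chromatin remodeller that also binds RNA. WT MEFs were compared with ATRXΔRBR MEFs, which carry a CRISPR deletion of the RNA-binding region (RBR) in the endogenous gene, and with MEFs labelled as carrying an ATRX shRNA (ATRX KD). All were female MEFs, ATRXΔRBR was a single clone with an in-frame deletion, and the shRNA cells had been selected with puromycin. RNA-Seq covered 6 libraries, 2 per kind of cell. CUT&RUN, in which a tethered nuclease releases the DNA around an antibody target, gave 16 peak lists, 2 for each combination of target and cells. Lists for ATRX came from the WT and the ATRXΔRBR cells, whereas EZH2 and H3K27me3 were also mapped in ATRX KD cells.

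DNA methylation in mammals is placed mostly on the cytosine of CpG dinucleotides. Dnmt3a and Dnmt3b set new methylation, and Dnmt1, brought to hemimethylated DNA by Uhrf1, copies it after replication. The Tet enzymes oxidise methylcytosine as a first step of its removal, and proteins with a methyl-CpG binding domain, such as Mbd1 and Mbd2, bind the methylated sites. EZH2 is the catalytic subunit of the polycomb complex PRC2, which places H3K27me3, a mark of repressed genes. CpG-rich promoters are the usual sites of PRC2 in mammalian cells.

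The genomic sequences behind the peak results are shown first, with every CpG in capitals. They were read from GRCm38, the assembly called mm10 in the study, on the strand of the gene. The first stretch lay in an intron of Tet1 at chr10:62851113-62851235 and was common to 5 peaks, 3 of ATRX and 2 of EZH2. The second lay in an intron of Dnmt1 at chr9:20944940-20945156 and was common to 2 ATRX peaks. The third was the 200 bases before the first annotated start of Uhrf1, at chr17:56303121-56303320, where ATRX and EZH2 peaks both lay. The fourth, at chr6:83441679-83441837, preceded an internal start of Tet3 and overlapped an exon of the antisense transcript B230319C09Rik. The last was the 200 bases before Dnmt3a, at chr12:3805807-3806006, where an H3K27me3 peak of ATRXΔRBR cells ended.
Tet1 intron: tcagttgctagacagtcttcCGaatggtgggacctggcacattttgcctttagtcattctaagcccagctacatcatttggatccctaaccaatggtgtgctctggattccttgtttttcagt
Dnmt1 intron: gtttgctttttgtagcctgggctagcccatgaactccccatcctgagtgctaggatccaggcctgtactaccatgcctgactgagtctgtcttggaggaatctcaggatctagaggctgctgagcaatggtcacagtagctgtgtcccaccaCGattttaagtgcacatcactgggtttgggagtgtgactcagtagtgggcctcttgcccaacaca
Uhrf1 upstream: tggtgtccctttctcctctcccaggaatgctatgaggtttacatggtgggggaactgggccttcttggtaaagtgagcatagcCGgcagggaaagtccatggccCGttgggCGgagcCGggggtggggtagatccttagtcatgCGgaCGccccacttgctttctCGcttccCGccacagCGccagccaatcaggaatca
Tet3 upstream: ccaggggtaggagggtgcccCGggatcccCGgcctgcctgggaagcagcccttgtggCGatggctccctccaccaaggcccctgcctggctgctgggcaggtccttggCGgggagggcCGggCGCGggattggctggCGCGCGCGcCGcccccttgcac
Dnmt3a upstream: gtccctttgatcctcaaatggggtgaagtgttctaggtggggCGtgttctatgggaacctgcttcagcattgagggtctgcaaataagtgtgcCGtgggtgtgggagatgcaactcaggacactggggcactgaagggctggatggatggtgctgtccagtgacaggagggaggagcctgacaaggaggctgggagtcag
The stretches differed in their CpG content. The Tet1 and Dnmt1 introns held 1 CpG each in 123 and 217 bases, and 27.2% of the Dnmt1 stretch was soft-masked as repeat in the assembly. The Uhrf1 and Tet3 stretches held 9 CpGs in 200 bases and 12 CpGs in 159 bases. The Dnmt3a stretch held 2 CpGs in 200 bases. It lay before the outermost annotated start, whereas the first coding transcript of Dnmt3a began at chr12:3806527.

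Promoter windows of 300 bases were also taken from RefSeq (GRCm38.p6), which held 12 windows for 7 of the 9 genes. The window of Tet2 was the richest in CpG with 57, and the most upstream window of Dnmt1 the poorest with 2. The Dnmt3a windows, downstream of the stretch above, held 46, 47 and 18 CpGs. The median of the 12 windows was 26 CpGs, against 7 over 32851 windows of all genes. A GC box (GGGCGG, either strand) was present in 10 of the 12 windows, against 35.7% of all windows. A CCAAT box (CCAAT, either strand) was present in 5 of 12, against 37.4% of all windows, and both motifs lay in the Uhrf1 and Tet3 stretches above. Some genes had several windows, and those of Dnmt3a at chr12:3806730-3807029 and chr12:3806910-3807209 overlapped. A match of letters is a description only.

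The libraries labelled ATRX KD were not low in Atrx RNA. Atrx, as CPM (counts scaled to the library size with TMM factors), was at 633 and 434 in WT, 371 and 312 in ATRXΔRBR cells and 411 and 551 in ATRX KD. Against WT, the log2 fold change was -0.63 ± 0.22 (SE; adjusted p = 0.140, edgeR's quasi-likelihood test) in ATRXΔRBR and -0.15 ± 0.21 (adjusted p = 0.605, edgeR) in ATRX KD. Per length, Atrx was at 233 and 141 TPM in WT, 175 and 124 TPM in ATRXΔRBR cells and 331 and 512 TPM in ATRX KD. The mean transcript length assigned to it was 4974 and 6292 bases in WT and 2839 and 2405 bases in ATRX KD. The deletion removes only part of the transcript, so its count does not check that label. The ATRX KD group is therefore named by its label throughout. The paper describes its ATRX KD MEFs as acutely depleted of ATRX, beside a western blot. RNA-Seq totals lay between 9051693 and 21723647 estimated counts, the lowest and the highest both in ATRX KD libraries. The median difference between annotated and effective transcript length was 37 bases in the 4 WT and ATRXΔRBR libraries and 36.55 bases in both ATRX KD libraries, so that the shRNA and whatever else set these libraries apart cannot be told apart. Of 10 fibroblast markers, Vim, Col1a1, Col1a2 and Fn1 were abundant in every library, Thy1 was at 0 in all, Lum was at 0 in 5, Dcn was at 0 in both ATRX KD libraries, and Col3a1 fell from 28.1 and 32.2 TPM in WT to 0.36 and 0.75 TPM in ATRX KD. The summed level of the 10 markers was between 7202 and 9518 TPM in WT, 11487 and 11534 TPM in ATRXΔRBR cells and 10993 and 11556 TPM in ATRX KD. Sox2, listed as 1 of 4 pluripotency markers, also fell, from a mean of 42.8 CPM in WT to 18.2 CPM in ATRXΔRBR and 0.75 CPM in ATRX KD. Of the same 4, Pou5f1 and Zfp42 were at 0 in all 6 libraries and Nanog did not exceed 0.35 TPM. Summed markers of macrophages lay between 7.56 and 14.6 TPM in the 6 libraries, those of epithelium reached 0.91 TPM and those of endothelium 5.22 TPM, and muscle markers were at 0. The part of these shifts in the results was not tested. In bulk RNA, fewer cells of a type and less RNA per cell cannot be told apart.

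None of the 9 genes passed the test for a change of RNA after deletion of the RBR. None was called between ATRXΔRBR and WT at an adjusted p under 0.05 (edgeR), where 6.85% of the 16334 genes tested were called. None had an unadjusted p under 0.05 (edgeR), against 3364 of the 16334 genes. DESeq2 called none of the 9 either. Without WT replicate 2, Tet1 was called (log2 fold change 1.13, adjusted p = 0.021, edgeR). The log2 fold changes ran from -0.33 ± 0.19 (SE) for Dnmt3a to 0.65 ± 0.35 for Tet1, with a median of -0.03 against -0.02 over all genes tested. In the libraries labelled ATRX KD, 6 of the 9 genes were called against WT, where 33.0% of 16785 genes were called. Of these, 5 were higher (Dnmt1, Dnmt3a, Tet1, Tet3 and Mbd1), against 15.2% of all genes, and Mbd2 was lower, against 17.8%. Their median log2 fold change was 0.45, against -0.02 over all genes tested. Against ATRXΔRBR, 4 of the 9 were called (Dnmt1, Dnmt3a, Tet3 and Mbd1), where 34.7% of 16520 genes were called. All 4 were higher, against 16.2% of all genes higher and 18.5% lower. These calls moved with single libraries. A fit that leaves 1 library in a group takes its spread from the other group alone. Without WT replicate 2, the log2 fold change against WT was 0.25 for Uhrf1 (0.20 with all libraries) and 0.93 for Tet2 (0.45). Without ATRXΔRBR replicate 1, the values against ATRXΔRBR were 0.73 for Tet1 (0.35), 0.51 for Tet2 (0.14) and -0.26 for Mbd2 (-0.22). Without ATRXΔRBR replicate 2, Uhrf1 was at -0.22 (-0.14). Both comparisons share the ATRX KD libraries, and the first shares the WT libraries with the comparison of ATRXΔRBR.

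**Figure D1:**
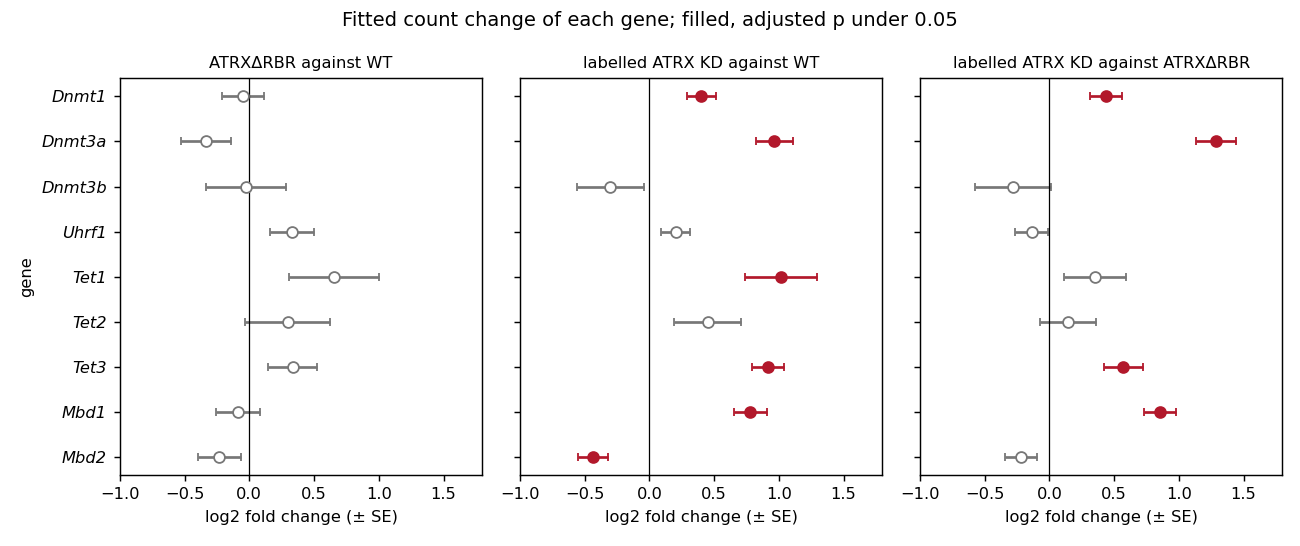
The 3 panels plot, for each gene on the vertical axis, the log2 fold change of its counts with its SE as a bar, from edgeR with 2 libraries per group. Filled red points had an adjusted p under 0.05: none in ATRXΔRBR against WT, 6 in labelled ATRX KD against WT and 4 in labelled ATRX KD against ATRXΔRBR.

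Levels of the 9 genes per transcript length (TPM, a unit corrected for length and depth) spanned about 2 orders of magnitude. In WT, Dnmt1 was at the top with 198 ± 6.9 TPM (SD, n = 2), followed by Mbd2 with 158 ± 4.5, Uhrf1 with 106 ± 28.2 and Mbd1 with 44.0 ± 5.8. Tet2 with 11.5 ± 4.8 TPM and Dnmt3a with 11.0 ± 3.7 TPM overlapped in their ranges. Tet3 lay at 8.03 ± 0.28 TPM, and the lowest, Dnmt3b with 2.63 ± 0.62 TPM and Tet1 with 1.805 ± 1.2 TPM, overlapped again. The 4 leading genes kept that order of means in ATRXΔRBR and ATRX KD cells, but the ranges of Mbd2 and Uhrf1 overlapped in both. Dnmt3a moved from the sixth place in WT to the fifth in ATRX KD, above Tet3 and Tet2.

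**Figure D2:**
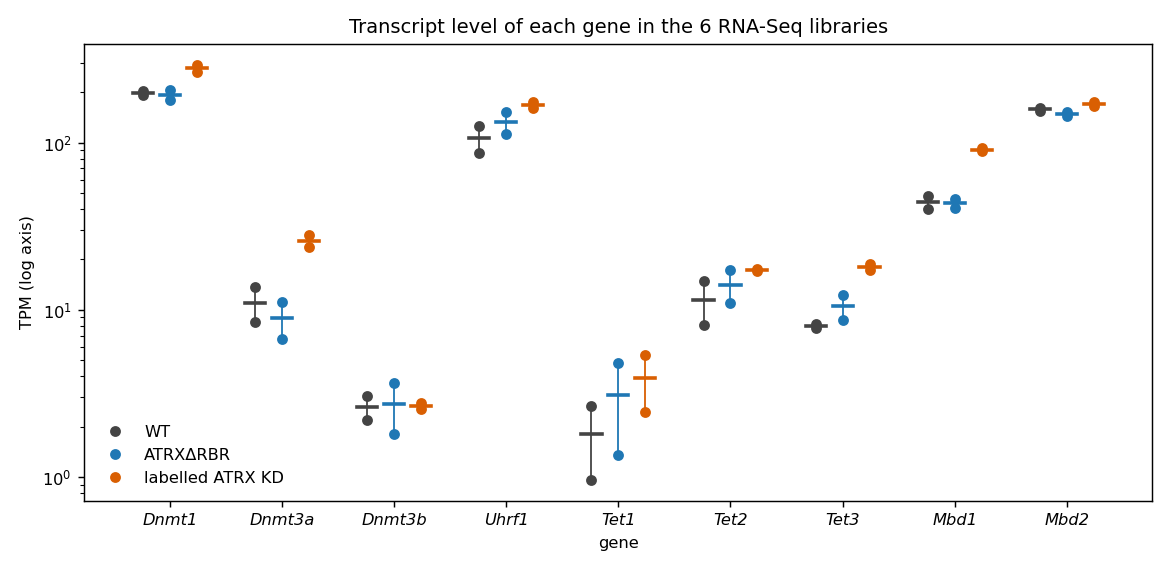
Each point is the TPM of a gene in a library on a log axis, the short bar is the mean of the 2 libraries of a group, and the thin line joins them. The points of Dnmt1, Dnmt3a, Uhrf1, Tet3, Mbd1 and Mbd2 in labelled ATRX KD lie above those of both other groups. Of these, Uhrf1 was not called in counts, and Mbd2 was called lower in counts against WT. The points of Dnmt3b and Tet1 overlap between the groups.

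Dnmt1, the maintenance methyltransferase (chr9:20907209-20959888, minus strand), was 1.32-fold higher in ATRX KD than in WT. Its CPM was 456 and 498 in WT, 483 and 432 in the ATRXΔRBR libraries, and 598 and 667 in ATRX KD. Both ATRX KD libraries lay above all 4 others, and the WT and ATRXΔRBR ranges overlapped. The log2 fold change was 0.40 ± 0.12 (adjusted p = 0.034, edgeR) against WT and 0.44 ± 0.12 (adjusted p = 0.025, edgeR) against ATRXΔRBR. Leaving out ATRX KD replicate 1 or replicate 2 ended both calls. The log2 fold changes were then 0.48 and 0.34 against WT and 0.51 and 0.38 against ATRXΔRBR.

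Uhrf1, which brings Dnmt1 to hemimethylated DNA (chr17:56303321-56323486, plus strand), was not called in any comparison. Its CPM was 131 and 139 in WT, 179 and 158 in the ATRXΔRBR libraries, and 154 and 159 in ATRX KD. WT was the lowest group, and the ranges of the other groups overlapped. The log2 fold changes from WT were 0.33 ± 0.17 (adjusted p = 0.330, edgeR) in ATRXΔRBR and 0.20 ± 0.11 (adjusted p = 0.206, edgeR) in ATRX KD. Per length the difference was wider: TPM was 86.1 and 126 in WT, 153 and 112 in the ATRXΔRBR libraries, and 160 and 176 in ATRX KD, a log2 difference of 0.66 between ATRX KD and WT. The mean transcript length that RSEM assigned to Uhrf1 was 2799 and 2282 bases in WT and 2201 and 2024 bases in ATRX KD.

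Dnmt3a, a de novo methyltransferase (chr12:3806007-3914443, plus strand), had the steepest rise against ATRXΔRBR among the 9 genes. Its CPM was 32.0 and 35.1 in WT, 29.2 and 23.8 in the ATRXΔRBR libraries, and 60.8 and 70.3 in ATRX KD. The lowest ATRX KD library thus lay above the highest of the other 4. The change was 1.95-fold against WT, a log2 fold change of 0.97 ± 0.14 (adjusted p = 0.0029, edgeR). Against ATRXΔRBR it was 2.44-fold, a log2 fold change of 1.29 ± 0.16 (adjusted p = 0.00041, edgeR). Dnmt3a was called in all 10 alternative fits of each of these comparisons.

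Dnmt3b, the other de novo methyltransferase (chr2:153649450-153687730, plus strand), was low and was not called in any comparison. Its estimated counts lay between 32 and 90 in the 6 libraries. Its CPM was 4.74 and 4.76 in WT, 5.57 and 3.78 in the ATRXΔRBR libraries, and 3.49 and 4.17 in ATRX KD, so that ATRX KD lay just below WT. Its log2 fold change in ATRX KD against WT was -0.30 ± 0.26 (adjusted p = 0.410, edgeR). The ratio of Dnmt3a to Dnmt3b in TPM was 3.82 and 4.46 in WT, 3.07 and 3.70 in the ATRXΔRBR libraries, and 9.27 and 10.1 in ATRX KD. Dnmt3l, a catalytically inactive cofactor of both, had 0 estimated counts in WT and ATRX KD and 1 in each ATRXΔRBR library. Antisense transcripts overlap both genes (Dnmt3aos and Dnmt3bos, with 0 or 1 estimated count per library), and whether the counting used strand is not given in the sources used here.

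The 3 Tet genes all had higher means in ATRX KD than in WT, and Tet1 and Tet3 passed the test. Tet3 (chr6:83362373-83459084, minus strand) was at 45.5 and 42.9 CPM in WT, 61.7 and 49.2 CPM in the ATRXΔRBR libraries, and 79.7 and 87.6 CPM in ATRX KD. The 3 groups did not overlap, with ATRXΔRBR between the others. Tet3 rose 1.89-fold in ATRX KD against WT (log2 fold change 0.92 ± 0.13, adjusted p = 0.0025, edgeR) and by 0.57 ± 0.15 on the log2 scale against ATRXΔRBR (adjusted p = 0.018, edgeR). The call against ATRXΔRBR was lost without ATRX KD replicate 1 (log2 fold change 0.63) and without replicate 2 (0.52). The difference of 0.33 ± 0.19 between ATRXΔRBR and WT did not pass (adjusted p = 0.380, edgeR).

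Tet1 and Tet2 were low in WT replicate 1. Tet1 (chr10:62804570-62908996, minus strand) was at 5.89 and 10.5 CPM in WT, 15.97 and 9.81 CPM in the ATRXΔRBR libraries, and 15.3 and 17.7 CPM in ATRX KD. The log2 fold change of Tet1 in ATRX KD against WT was 1.01 ± 0.28 (adjusted p = 0.029, edgeR), and it lay between 0.65 and 1.49 when a library was left out. Its TPM ranges overlapped between these groups, since the mean length that RSEM assigned to it varied from 7079 to 14086 bases between libraries. Tet2 (chr3:133463679-133545139, minus strand) was at 18.8 and 34.0 CPM in WT, 39.9 and 24.7 CPM in the ATRXΔRBR libraries, and 36.2 and 36.1 CPM in ATRX KD. Its log2 fold change against WT was 0.45 ± 0.26 (adjusted p = 0.220, edgeR) in ATRX KD. Tet2 in ATRXΔRBR against WT changed sign with WT replicate 1, from 0.30 ± 0.33 with it to -0.07 without it, and with ATRXΔRBR replicate 1, to -0.085 without it. In ATRX KD against WT, Tet2 was at 0.93 without WT replicate 2 and at 0.067 without WT replicate 1.

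The methyl-CpG readers moved in opposite directions on the count scale. Mbd1 (chr18:74267605-74282732, plus strand) was at 70.4 and 78.4 CPM in WT, 70.4 and 68.9 CPM in the ATRXΔRBR libraries, and 133 and 123 CPM in ATRX KD. It was 1.72-fold higher in ATRX KD than in WT (log2 fold change 0.78 ± 0.12, adjusted p = 0.0042, edgeR) and 1.81-fold higher than in ATRXΔRBR (0.85 ± 0.13, adjusted p = 0.0011, edgeR). Mbd1 was called in all 10 alternative fits of each comparison with ATRX KD.

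Mbd2 (chr18:70568189-70626131, plus strand), which recruits the NuRD deacetylase complex, was lower in counts but not per length. Its CPM was 129 and 122 in WT, 102 and 110 in the ATRXΔRBR libraries, and 89.1 and 96.7 in ATRX KD, and the 3 groups did not overlap. The log2 fold change of ATRX KD from WT was -0.43 ± 0.12 (adjusted p = 0.029, edgeR). That call was lost without ATRX KD replicate 1 (log2 fold change -0.38) or replicate 2 (-0.47). TPM of Mbd2 was 161 and 155 in WT, 151 and 145 in the ATRXΔRBR libraries, and 165 and 175 in ATRX KD, so that ATRX KD was the highest group and the log2 difference from WT was 0.10. The mean length that RSEM assigned to Mbd2 was 1488 and 1633 bases in WT, 1471 and 1484 bases in ATRXΔRBR cells, and 1258 and 1256 bases in ATRX KD. The fall is therefore a fall of counts, and no lower transcript level was seen on the TPM scale. The ratio of Mbd2 to Mbd1 in TPM was 4.05 and 3.22 in WT, 3.28 and 3.58 in the ATRXΔRBR libraries, and 1.78 and 1.97 in ATRX KD.

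**Figure D3:**
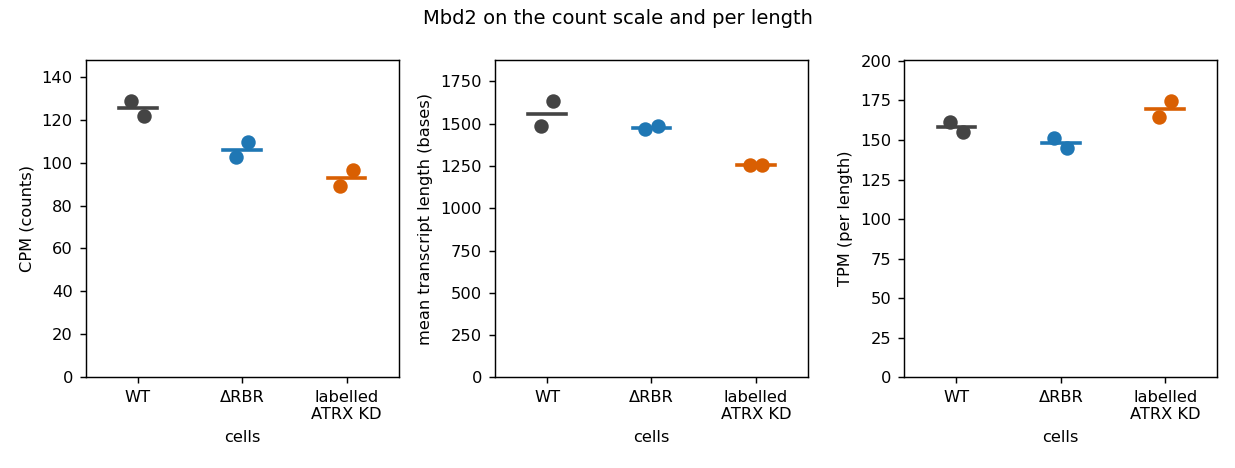
The panels plot Mbd2 in each library as CPM, as the mean transcript length in bases and as TPM, with bars for the mean of the 2 libraries of a group. From WT to labelled ATRX KD the CPM fell, the assigned length fell from 1488 and 1633 to 1258 and 1256 bases, and the TPM did not fall.

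Other genes of the pathway were described by list, and each count below stands beside the shares of all genes tested. In ATRXΔRBR against WT, 6.85% of all genes were called. In ATRX KD, 15.2% were higher and 17.8% lower against WT, and 16.2% were higher and 18.5% lower against ATRXΔRBR. Of 10 cofactors of maintenance and de novo methylation, 8 were tested and none was called in ATRXΔRBR against WT (largest change Uhrf2, log2 fold change 0.35 ± 0.17, adjusted p = 0.311, edgeR). In ATRX KD against WT, 2 were lower and none higher, namely Mat2b (-0.93 ± 0.13), a subunit of S-adenosylmethionine synthesis, and Hells (-0.61 ± 0.15), a remodeller needed for CpG methylation. Their median was -0.20. Against ATRXΔRBR, 4 were lower, including Uhrf2 (-0.53 ± 0.12), Hells (-0.68 ± 0.15), Mat2b (-0.72 ± 0.13) and Ahcy (-0.65 ± 0.21). Cdca7, the partner of Hells, had a log2 fold change of -0.07 ± 0.12 from WT and was not called.

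Of 12 genes of active demethylation and base excision repair, all were tested against WT. In ATRXΔRBR, 2 were higher and 1 lower: Gadd45a (1.09 ± 0.22, adjusted p = 0.026, edgeR), Idh1 (0.75 ± 0.16, adjusted p = 0.030, edgeR), which makes the 2-oxoglutarate used by Tet enzymes, and Cxxc4, with 13 and 8 estimated counts in the WT libraries and 0 in each ATRXΔRBR library. In ATRX KD, 5 were lower than in WT and none higher: Gadd45g (-1.56 ± 0.23), Gadd45a (-1.22 ± 0.21), Apex1 (-0.73 ± 0.15), Gadd45b (-0.61 ± 0.12) and Cxxc4, at 0 in both libraries. The median of this list was -0.40 in ATRX KD against WT, whereas that of the 9 genes was 0.45. Gadd45a thus lay above WT in ATRXΔRBR and below it in ATRX KD, with a log2 fold change of -2.33 ± 0.16 between them (adjusted p = 1.6e-05, edgeR). Against ATRXΔRBR, 5 of the 11 tested were lower and none higher, the others being Gadd45g (-1.02 ± 0.22), Apex1 (-0.69 ± 0.16), Idh1 (-0.66 ± 0.12) and Ogt (-0.56 ± 0.16).

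Among 10 other readers of methylated or unmethylated CpG, none was called in ATRXΔRBR (largest change Zbtb4, -0.56 ± 0.20, adjusted p = 0.166, edgeR). In ATRX KD against WT, 5 were higher and none lower, among them Mbd5 (0.86 ± 0.24), Zbtb4 (0.67 ± 0.15), Zbtb38 (0.63 ± 0.12) and Mbd6 (0.58 ± 0.12). Mbd3, a NuRD subunit that does not read methylation, was at -0.42 ± 0.16 (adjusted p = 0.091, edgeR). Against ATRXΔRBR, Zbtb4 (1.22 ± 0.16), Mbd5 (0.89 ± 0.21) and Zbtb38 (0.88 ± 0.17) were higher. Of 11 NuRD subunits, 4 were higher and 2 lower in ATRX KD against WT, with Chd3 (0.99 ± 0.11), Gatad2b (0.79 ± 0.12), Mta1 (0.46 ± 0.15) and Chd4 (0.46 ± 0.13) up and Hdac2 (-0.55 ± 0.11) and Rbbp7 (-0.47 ± 0.12) down. Against ATRXΔRBR, Chd3 (1.00 ± 0.13) and Chd4 (0.57 ± 0.13) were higher and Gatad2a (-0.41 ± 0.13) lower. In ATRXΔRBR against WT, none of the subunits was called (largest change Hdac2, -0.55 ± 0.16, adjusted p = 0.080, edgeR).

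Dnmt1 and Uhrf1 are expressed with DNA replication, so genes of S phase and proliferation were set beside them. None of 15 was called in ATRXΔRBR against WT (largest change Mcm6, 0.60 ± 0.16, adjusted p = 0.064, edgeR). In ATRX KD against WT, 4 were higher and 7 lower, with Mki67 (1.00 ± 0.23), Top2a (0.80 ± 0.12) and Rrm2 (0.72 ± 0.11) up and Mcm7 (-1.06 ± 0.11), Pcna (-0.83 ± 0.12) and Tyms (-0.52 ± 0.12) down. Against ATRXΔRBR, 3 were higher and 6 lower, with Mki67 at 0.88 ± 0.26 and Mcm7 at -0.74 ± 0.13. The part of proliferation in the values of Dnmt1 was not tested. Of 12 germline genes known to be silenced by promoter methylation, 7 were at 0 TPM in all 6 libraries and 2, Sycp1 and Sycp3, had enough counts to be tested. Neither was called in any comparison, and the summed level of the 12 was between 1.92 and 8.93 TPM in all libraries.

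The genes whose profile over the 6 libraries was closest to each called gene were found among 12767 others, by the Euclidean distance between centred log2 CPM values. Closest to Dnmt3a were Evc (0.16), Mpp5 (0.19) and Phyh (0.22). Closest to Tet3 were Ctnnd1 (0.11), Rad50 (0.12) and Rere (0.12), and closest to Tet1 were Dbndd1 (0.17), A930037H05Rik (0.22) and Pfkfb2 (0.23). Bicd2 (0.10), Golga5 (0.10) and C1qtnf1 (0.11) were closest to Dnmt1, Rnd3 (0.08), Kat2b (0.10) and Knstrn (0.10) to Mbd1, and Arl2bp (0.06), Ilf2 (0.07) and Nifk (0.08) to Mbd2. All share the same 6 libraries and their depths.

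ATRX peaks lay at 0 to 3 of the 9 starts in each list. Within 2 kb of the outermost gene start, 2 and 0 of the 9 genes had a peak in the WT lists and 3 and 1 in the ATRXΔRBR lists. Among all 21951 protein-coding genes the shares were 12.04% and 5.76% in WT and 13.6% and 4.97% in ATRXΔRBR. Among those with at least 5 TPM in both WT libraries, they were 22.95% and 10.9% in WT and 26.95% and 9.24% in ATRXΔRBR. That set leaves out Dnmt3b and Tet1. Uhrf1 and Mbd2 had an ATRX peak at the start in replicate 1 of both WT and ATRXΔRBR, and in neither replicate 2. Mbd1 had a peak in ATRXΔRBR replicate 1 only and Tet2 in ATRXΔRBR replicate 2 only. The ATRX peak over the Uhrf1 start was 207 bp wide in WT replicate 1 and 1127 bp wide in ATRXΔRBR replicate 1.

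Outside the starts, ATRX peaks recurred at the intronic sites shown above. The Tet1 site began 57703 bp downstream of the outermost start in WT replicate 1 and was present in both WT ATRX lists and in ATRXΔRBR replicate 1. It was also present in both WT EZH2 lists, with a fold enrichment over background of 7.999 and 6.09, and in no EZH2 list of ATRXΔRBR or ATRX KD cells. Each of the 5 peaks was between 176 and 242 bp wide. The Dnmt1 site was present in replicate 2 of WT and of ATRXΔRBR, 217 and 220 bp wide, and in no EZH2 list. No IgG control track was set beside these sites. At Tet3, an ATRX peak lay over the internal start of transcript Tet3-202 in WT replicate 2 only.

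An EZH2 peak lay at the outermost start of 6 and 5 of the 9 genes in WT, of 7 and 4 in ATRXΔRBR cells, and of 2 and 3 in the cells labelled ATRX KD. Over all protein-coding genes the shares were 50.55% and 46.8% in WT, 49.2% and 35.0% in ATRXΔRBR cells, and 19.4% and 24.8% in ATRX KD. Among protein-coding genes with at least 5 TPM in both WT libraries, the shares were 84.4% and 78.4% in WT, 87.1% and 57.9% in ATRXΔRBR cells, and 31.7% and 41.5% in ATRX KD, a set that leaves out Dnmt3b and Tet1. Counting the start of any coding transcript, which takes in the internal starts of Dnmt1, Tet1 and Tet3, raised the number to 9 and 7 in WT and to 9 and 4 in ATRXΔRBR. By that count the shares of all protein-coding genes were 53.0% and 49.1% in WT and 51.6% and 36.9% in ATRXΔRBR. Uhrf1 and Mbd1 had an EZH2 peak at the start in all 6 lists. Dnmt3b and Tet2 had it in both WT lists and in neither ATRX KD list, as did 18.3% of all protein-coding genes. The ATRX KD lists held 5376 and 7093 EZH2 peaks in all, against 11408 to 22418 in the other 4, and the depth behind each list is unknown. With 2 lists against 2, an exact permutation test cannot go below a two-sided p of 0.33.

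**Figure D4:**
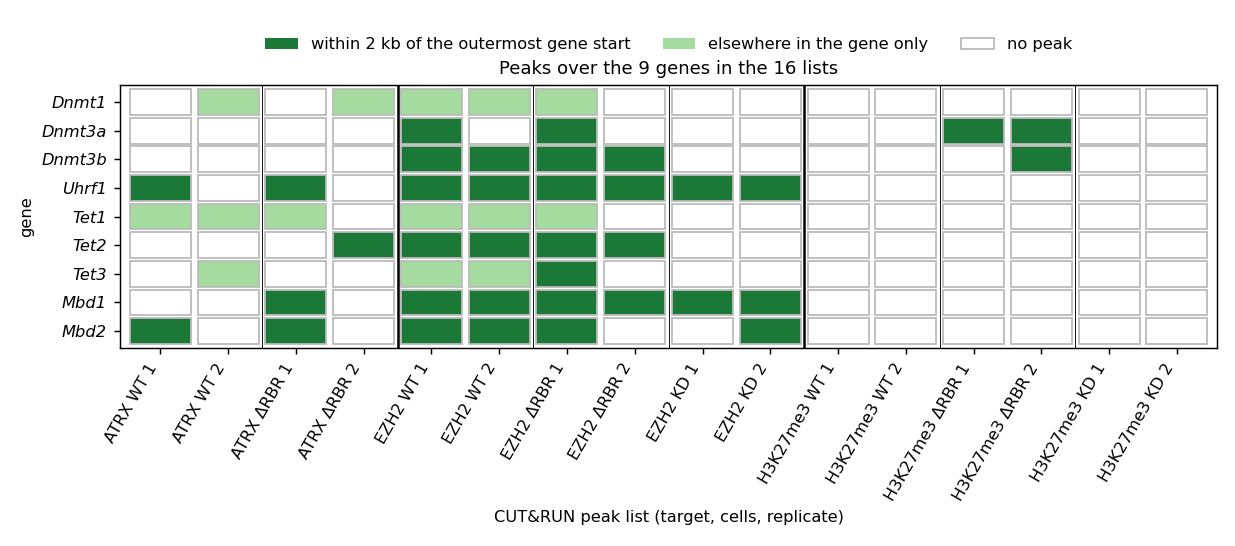
Rows are the 9 genes and columns the 16 CUT&RUN peak lists. Dark cells have a peak within 2 kb of the outermost gene start, light cells have peaks only elsewhere in the gene, and white cells have none. Uhrf1 and Mbd1 are dark in all 6 EZH2 lists, and H3K27me3 marks only Dnmt3a and Dnmt3b, in ATRXΔRBR lists.

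H3K27me3 was listed near 2 of the 9 genes, the de novo methyltransferases, and only in ATRXΔRBR lists. No WT list and no ATRX KD list had an H3K27me3 peak at any of the 9 starts or inside any of the genes. At the start, 15.58% and 16.43% of all protein-coding genes had a peak in WT, and 16.18% and 14.65% in ATRXΔRBR. In ATRX KD the shares were 6.041% and 5.585%. Among such genes with at least 5 TPM in both WT libraries, they were 3.205% and 3.696% in WT and 5.784% and 5.199% in ATRXΔRBR. In ATRX KD they were 1.483% and 1.211%, and this set leaves out Dnmt3b and Tet1. H3K27me3 peaks had a median width of 1213 and 1267 bp in WT and 1838 and 1902 bp in ATRXΔRBR. Dnmt3a had a peak in both ATRXΔRBR lists, at chr12:3801052-3806005 and chr12:3801056-3805748. These peaks were 4954 and 4693 bp wide and ended 2 and 259 bp before the gene start, so that the wider of them covered all but the last base of the stretch printed above. The nearest start of a coding transcript lay 522 and 779 bp from them. Such a pattern, a peak at the start in both ATRXΔRBR lists and neither WT list, was found for 3.63% of all protein-coding genes. The nearest H3K27me3 peak of the WT lists lay 234613 and 146912 bp from the Dnmt3a start.

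Dnmt3b showed a like arrangement farther upstream. In ATRXΔRBR replicate 1 a peak of 4779 bp ended 4619 bp before its start, and in replicate 2 the nearest peak, of 562 bp, ended 748 bp before it. In WT, the nearest H3K27me3 peaks lay 87009 and 88103 bp away. With a window of 5 kb, chosen after these values were seen, Dnmt3a and Dnmt3b both had a peak in both ATRXΔRBR lists and neither WT list, as had 5.89% of all protein-coding genes. EZH2 peaks covered the Dnmt3b start in all 4 WT and ATRXΔRBR lists. At Dnmt3a, the EZH2 peak of ATRXΔRBR replicate 1 covered the start, and that of WT replicate 1 began 158 bp downstream of it. In replicate 2, the EZH2 peak nearest to that start lay 13890 bp upstream in WT and 13933 bp upstream in ATRXΔRBR. The Dnmt3a peaks had −log10 q values of 1.96 and 1.75, so that neither was kept at a q-value of 0.01 or less. The RNA of neither gene was called in ATRXΔRBR cells, with log2 fold changes of -0.33 ± 0.19 (adjusted p = 0.387, edgeR) for Dnmt3a and -0.03 ± 0.31 (adjusted p = 0.975, edgeR) for Dnmt3b.

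**Figure D5:**
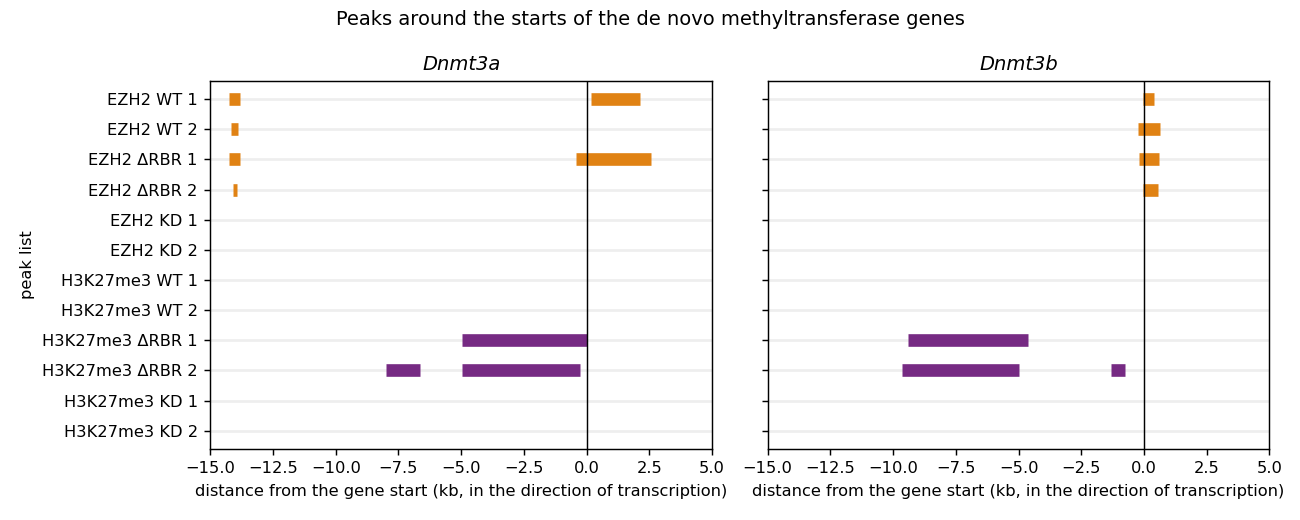
Bars are peaks of EZH2 (orange) and H3K27me3 (purple) in each list, by distance in kb from the start of Dnmt3a and Dnmt3b in the direction of transcription. H3K27me3 bars appear before both starts in the 2 ATRXΔRBR lists and in no WT or ATRX KD list. EZH2 peaks lie over the Dnmt3b start in every WT and ATRXΔRBR list. At the Dnmt3a start, one lies over it in ATRXΔRBR replicate 1 and just after it in WT replicate 1. In replicate 2, the EZH2 peak nearest to the Dnmt3a start lies 13890 bp upstream in WT and 13933 bp upstream in ATRXΔRBR. Both replicate 1 lists also hold an EZH2 peak farther upstream of Dnmt3a. ATRX KD lists have no EZH2 peak at either start.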

How the data were processed

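The 22 libraries analysed gave 16 CUT&RUN peak lists and 6 RNA-Seq tables, whereas the 4 IgG libraries were left out (not analysed here). The labels put 2 libraries in each group, which the study's methods describe as biological replicates, and p-values measure the spread between them. The 9 genes and the gene lists were chosen with earlier results of these data known. RNA was enriched for polyA.

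Per the labels and the study's methods, the authors mapped CUT&RUN reads to mm10 (Bowtie2), and MACS2 was run library by library in its broad mode. Each deposited peak carries a fold enrichment, a ratio over local background, and a −log10 q, which was the q-value used here. The authors aligned RNA-Seq reads with STAR, and the deposited expected counts (estimated counts) and TPM came from RSEM. The deposited FPKM values were not used.

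Estimated counts were rounded and tested with edgeR 4.0.16 (quasi-likelihood, TMM, R 4.3.3) in genes with more than 10 estimated counts over the 4 libraries compared, with Benjamini-Hochberg adjustment over all genes tested and calls at an adjusted p under 0.05. DESeq2 1.42.0 was an alternative. The script was tested on simulated data. Peaks were counted at a gene with an overlap of at least 1 bp with 2 kb on each side of its outermost start in GENCODE M21. Sequences were read with samtools 1.23.1. Text named the 9 genes, Atrx, up to 6 called genes per list by size of change, the top gene of lists with no call, and Dnmt3l, Mbd3, Hells and Cdca7. A further gene that the rule names is not reported here. CPM of all libraries used TMM factors, and the profile distances used genes with a mean of at least 1 CPM and a prior count of 2. The depth of the peak lists is unknown.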

Additional observations from a re-analysis of the deposited data

How the results depend on the processing

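The calls in ATRXΔRBR against WT stayed at 0 of the 9 genes under DESeq2, DESeq2 size factors, other filters and the fit of all 6 libraries. The number of genes called in all was 1119, and it became 1979 with no filter on low counts, 596 with at least 10 counts in every library and 1812 with all 6 libraries in the fit. Leaving out a library gave 1055 to 1520 genes and 0 to 1 of the 9, the 1 without WT replicate 2. Same-numbered libraries of WT and ATRXΔRBR deviated in opposite directions (r = -0.54), so the numbers do not pair them. With the replicate block, 1071 genes and 0 of the 9 were called in ATRXΔRBR against WT, 5792 genes and 5 of the 9 in ATRX KD against WT (Tet2 added, adjusted p = 0.045, Dnmt1 and Mbd2 lost, adjusted p = 0.057 and 0.056, edgeR), and 6775 genes and 4 of the 9 in ATRX KD against ATRXΔRBR. A crossed pairing, chosen after seeing the data, called 5585 genes and 5 of the 9 in ATRXΔRBR against WT. For WT and ATRX KD the correlation was -0.08 and for ATRXΔRBR and ATRX KD 0.11.

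Requiring an absolute log2 fold change of at least 1 left 2495 genes and 1 of the 9 (Tet1) in ATRX KD against WT, and 2612 genes and 1 of the 9 (Dnmt3a) in ATRX KD against ATRXΔRBR. Leaving out a library gave 3193 (without ATRX KD replicate 2) to 8947 genes (without WT replicate 2) and 4 to 8 of the 9 against WT, and 3089 (without ATRX KD replicate 2) to 8736 genes (without ATRXΔRBR replicate 1) and 2 to 7 of the 9 against ATRXΔRBR. Without ATRX KD replicate 1 these were 3525 and 3488 genes. The fold change of Mbd2 in ATRX KD against WT reversed on the TPM scale, to 0.10 with a pseudocount of 1 and of 0.1. Leaving out a library reversed the uncalled values of Dnmt1 (-0.13 to 0.042), Dnmt3b (-0.32 to 0.25) and Tet2 (-0.085 to 0.79) in ATRXΔRBR against WT, and of Dnmt3b (-0.54 to 0.0049) and Tet2 (-0.17 to 0.51) in ATRX KD against ATRXΔRBR.

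Among peaks, EZH2 in WT was at 8 genes on average, in place of 5.5, when any coding start counted. H3K27me3 in ATRXΔRBR was at 0.5 genes in place of 1.5 with a q-value of 0.01 or less, or with the midpoint of the peak in the window. EZH2 in ATRX KD was at 1.5 genes in place of 2.5 with a q-value of 0.01 or less. Depth cannot be read from the lists. The cause of these shifts was not tested, apart from the fewer genes, peaks or samples that an alternative itself leaves.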
